A study of Mus musculus with 8 samples.

Results

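Galectins are small animal lectins that bind beta-galactosides on glycoproteins and glycolipids. The 4 genes described here are Lgals1, Lgals8 and Lgals9, which encode galectin-1, galectin-8 and galectin-9, and Lgals3bp, which encodes the secreted glycoprotein galectin-3-binding protein. They are 4 of the 32249 genes listed in single-cell RNA data of mouse macrophages cultured with or without CYR61, a matricellular protein that binds integrins. They were picked by name with their levels in CYR61 and control libraries already known, so those levels are given below as a description. Calls of the fit across all genes are counted for them beside their background, and nothing is supported with those calls.

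Galectins are made in the cytosol without a signal peptide and reach the cell surface and the extracellular space by an unconventional route. Outside the cell they cross-link receptors and matrix glycoproteins, and inside it some of them bind glycans exposed on damaged vacuoles. Galectin-1 is a prototype galectin with a single carbohydrate-binding domain that acts as a dimer, whereas galectin-8 and galectin-9 carry a pair of such domains joined by a linker. Galectin-8 recruits autophagy receptors to broken vacuoles, and galectin-9 binds the immune checkpoint receptor TIM-3. Galectin-3-binding protein is not a lectin of this family but a scavenger receptor cysteine-rich protein that galectins bind, and it is known as interferon-inducible, as is galectin-9.

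The CYR61 group was bone marrow of C57Bl/6J mice grown with M-CSF, the growth factor that drives macrophage differentiation, for 3 days and then given 4 µg/mL of CYR61 for 24 h. The Control group had the same culture and time without the protein. Mice were labelled male and 10 weeks old, there were 4 libraries in each group, and libraries were made on the HIVE microwell platform. The labels do not say whether replicates came from separate animals or separate cultures, so tests below measure the spread between libraries, which may be technical.

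Cells were barcodes with 300 or more genes detected and no more than 20% of UMIs (unique molecular identifiers, 1 for each captured RNA molecule) from mitochondrial genes. Of 12848 such cells, 6443 (50.1%) had a barcode that a further library with that date stamp held too, so the libraries were not fully separate. Each barcode was therefore held only in the library of its date stamp where it had most UMIs, which left 9196 cells, called home-library cells here. They numbered 499 to 3604 in CYR61 libraries and 294 to 1058 in Control libraries, with 1149043 to 13933610 and 842528 to 3436577 UMIs. The median cell held 789 to 1595 UMIs in CYR61 libraries and 921 to 1144 UMIs in Control libraries. The earlier of the date stamps was that of replicates 1 and 2 in each group and the later that of replicates 3 and 4, and Xist and Y-linked RNA split each group into a pair of libraries of each kind, against the male label. All 8 listed macrophage markers, Csf1r, Adgre1, Cd68, Mertk, Fcgr1, Lyz2, Cd14 and Itgam, were detected, and they summed to 11482 to 16185 CPM (a gene's UMIs scaled to 1e6 UMIs in the library) in CYR61 and 8954 to 13712 CPM in Control libraries. Lyz2 made up most of this sum, at 5880 to 12256 CPM. Fcgr1 had 380 to 523 CPM in CYR61 and 84.3 to 121 CPM in Control libraries. It and, narrowly, Mertk were higher in every CYR61 library, as were 2.87% of 10422 genes tested, and the other markers overlapped.

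Lgals9 and Lgals3bp were higher in every CYR61 library than in any Control library, whereas Lgals1 and Lgals8 overlapped between the groups. Of the 4 genes, 2 lay past an edgeR adjusted p of 0.05 as higher with CYR61 and 0 as lower, beside 1.12% of 10422 genes tested that were called higher and 0.0384% called lower. The groups did not overlap, with CYR61 higher, for 2.87% of genes tested. Since the genes were chosen with this contrast known, nothing is read from that count. With the earlier date alone 2 of the 4 lay past the threshold as higher, beside 0.459% of genes tested, and with the later date alone 1, Lgals3bp, beside 0.887%.

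Lgals9 (chromosome 11, 78962974 to 78984946, minus strand, mm10) had 225, 205, 278 and 300.01 CPM in CYR61 replicates 1 to 4, against 86.4, 89.2, 114 and 101 CPM in Control replicates 1 to 4. The lowest CYR61 library thus lay well above the highest Control library, and both CYR61 libraries of the later date lay above both of the earlier date. The means were 252 ± 44.4 CPM in CYR61 and 97.6 ± 12.6 CPM in Control libraries (SD, n = 4 each), a ratio of 2.59. The fitted log2 fold change was 1.40 with an SE of 0.19.

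Lgals3bp (chromosome 11, 118392751 to 118402092, minus strand) had 461, 394, 504 and 513 CPM in CYR61 replicates 1 to 4, against 142, 148, 157 and 129.6 CPM in Control replicates 1 to 4. Again no CYR61 library came near the Control range, and the lowest was replicate 2, as for Lgals9. The means were 468 ± 54.0 CPM in CYR61 and 144 ± 11.3 CPM in Control libraries (SD, n = 4 each), a ratio of 3.25. The fitted log2 fold change was 1.73 with an SE of 0.16. These values rested on 11634 UMIs in CYR61 and 924 UMIs in Control libraries, and those of Lgals9 on 6084 and 599 UMIs.

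Lgals1 (chromosome 15, 78926725 to 78930465, plus strand) had 853, 924, 1271 and 977 CPM in CYR61 replicates 1 to 4, against 1157, 1195, 1063 and 1254 CPM in Control replicates 1 to 4. CYR61 replicate 3 was the highest of all 8 libraries and the other 3 CYR61 libraries lay below every Control library, so the groups overlapped through 1 library. The log2 fold change was -0.18 with an SE of 0.17, and it lay between -0.25 and -0.07 with any 1 library left out.

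Lgals8 (chromosome 13, 12439415 to 12464944, minus strand) had 174, 171, 178 and 181 CPM in CYR61 replicates 1 to 4, against 193, 176, 202 and 229 CPM in Control replicates 1 to 4. CYR61 libraries were tightly grouped, with a mean of 176 ± 4.60 CPM, while Control libraries averaged 199.9 ± 22.4 CPM (SD, n = 4 each). The lowest Control library lay within the CYR61 range. The log2 fold change was -0.16 with an SE of 0.16, and without Control replicate 4 it was -0.0040.

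**Figure D1:**
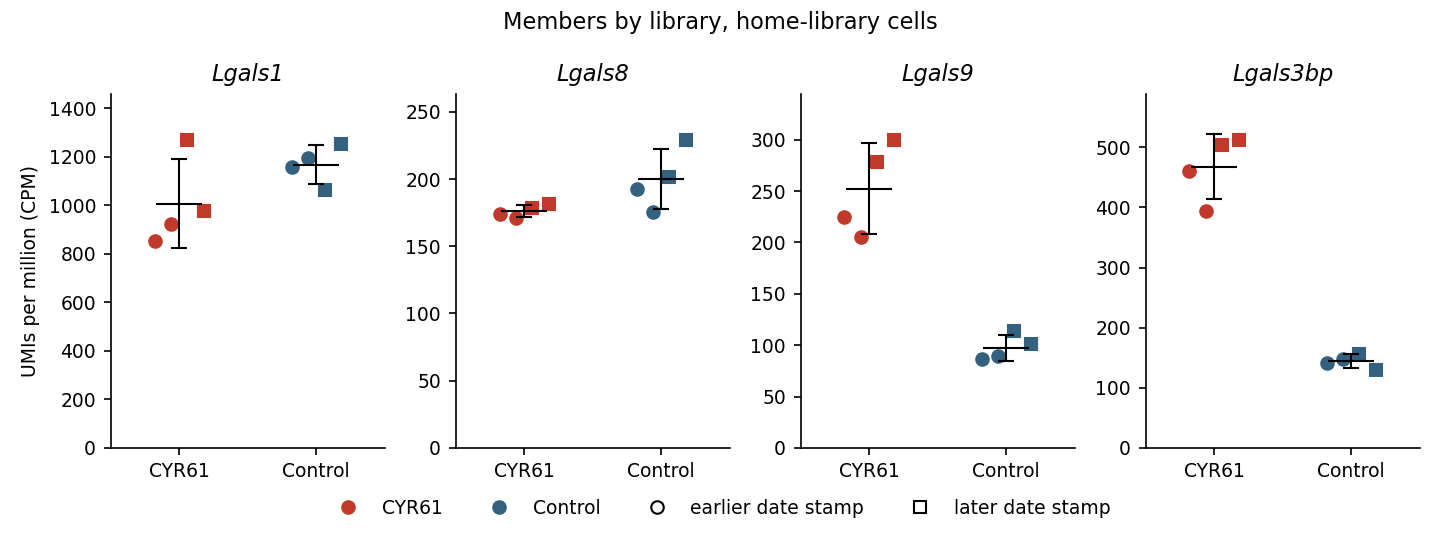
Levels of Lgals1, Lgals8, Lgals9 and Lgals3bp in CPM (y axis, each panel from 0) in each of 4 CYR61 and 4 Control libraries of home-library cells. Circles are libraries of the earlier and squares of the later date stamp, and bars are the mean and SD; the groups are apart for Lgals9 (205 CPM at the lowest CYR61 library, 114 CPM at the highest Control library) and Lgals3bp (394 and 157 CPM), and overlap for Lgals1 and Lgals8.

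The files listed 5 other galectin rows. Lgals3, which encodes the single-domain chimeric galectin abundant in macrophages (chromosome 14, 47367751 to 47386160), had 4927, 5126, 7375 and 5393 CPM in CYR61 replicates 1 to 4 and 6653, 4684, 5399 and 7374 CPM in Control replicates 1 to 4. The groups shared nearly the same range, and its log2 fold change of -0.05 (SE 0.21) did not pass (edgeR adjusted p = 0.9999). Lgals3 is the lectin for which galectin-3-binding protein is named, and its level overlapped between the groups where that of Lgals3bp did not. Lgals4, Lgals7, Lgals2 and Lgalsl did not pass the filter on low counts. Lgals4 had 50 UMIs in CYR61 and 22 UMIs in Control libraries, Lgalsl 126 and 19, Lgals7 2 and 1, and Lgals2 1 and 0. For Lgals2 the Control count of 0 allows up to 0.464 CPM, taking 3 counts over the group, so no difference was detectable at this depth.

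Whether the effect of CYR61 differed between date stamps is another contrast than the one the genes were chosen by. For Lgals9 the log2 fold change was 1.42 in replicates of the earlier date and 1.40 in those of the later date, and for Lgals3bp 1.68 and 1.80. Lgals1 had -0.28 and -0.08, and Lgals8 0.02 and -0.29. None of the 4 differences between dates passed (edgeR interaction test, adjusted p from 0.742 to 0.981), with SEs of 0.29 to 0.31 on the log2 scale. Over the 10422 genes tested this interaction was called for 0%, while 1055 had a p under 0.05 before adjustment. At each date CYR61 libraries were of 1 kind by Xist and Y-linked RNA, so a difference between dates could not be told apart from that split.

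The contrast was smaller when barcodes with more UMIs in another library were included, and the cause was not tested. In all kept cells, Lgals3bp had 429, 388, 451 and 513 CPM in CYR61 replicates 1 to 4 and 143, 293, 213 and 220 CPM in Control replicates 1 to 4. Control replicate 1, the lowest, had 1.29% of its UMIs in barcodes with more UMIs in another library, whereas Control replicate 2, the highest, had 76.1%, and replicates 3 and 4 had 24.2% and 27.4%. Lgals9 likewise had 207, 197, 249.97 and 299.7 CPM in CYR61 replicates 1 to 4, against 86.5, 132, 125 and 141 CPM in Control replicates 1 to 4. The groups still did not overlap for either gene, and the log2 fold changes were 1.001 (SE 0.22) for Lgals3bp and 0.95 (SE 0.21) for Lgals9. Over all kept cells none of 11148 genes was called by edgeR (0%), 279 had a p under 0.05 before adjustment, and CYR61 was above Control without overlap for 1.87% of genes. In barcodes listed in 1 library of their date, a stricter set of 6405 cells, the log2 fold changes were larger, at 1.99 for Lgals3bp and 1.76 for Lgals9. Lgals8 in that set had 131 to 146 CPM in CYR61 and 165 to 226 CPM in Control libraries. Its log2 fold change of -0.34 (SE 0.20) did not pass (edgeR adjusted p = 0.99). The share of all genes with groups apart was not counted in that set, so nothing is read from these ranges.

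**Figure D2:**
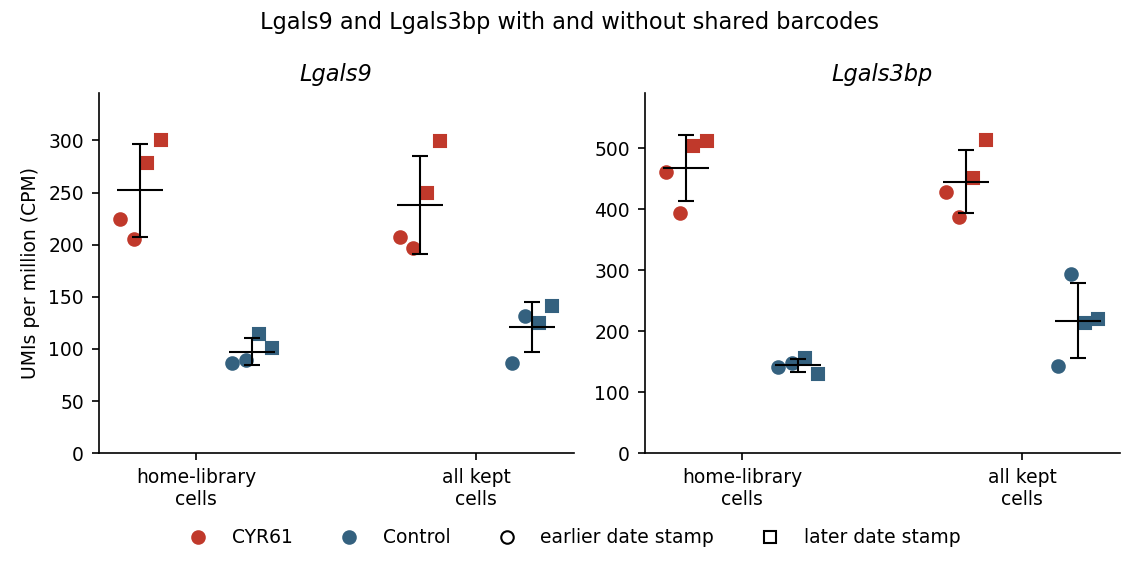
Levels of Lgals9 and Lgals3bp (CPM, y axis from 0) by library in home-library cells, at the left of each panel, and in all kept cells, at the right, with CYR61 libraries left of Control libraries, and the mean and SD as bars. In CYR61 libraries Lgals3bp averaged 445 ± 52.1 CPM in all kept cells and 468 ± 54.0 CPM in home-library cells, and in Control libraries 217 ± 61.6 CPM and 144 ± 11.3 CPM (SD, n = 4).

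The log2 fold changes of Lgals9 and Lgals3bp were among the smaller ones beside those of interferon-inducible genes. A list of 38 genes of the type I interferon response, which holds none of the 4 genes, had 37 members higher with CYR61, 0 lower and 1 not past the threshold (edgeR adjusted p under 0.05 over all genes). Its median log2 fold change was 3.11, beside -0.02 over all genes tested. The log2 fold change of Lgals3bp was larger than that of 5 of the 38 and that of Lgals9 larger than that of 3. Isg20, an exonuclease, was the one that did not pass and is named here after its values were seen; it had 14.1 ± 6.98 CPM in CYR61 and 2.29 ± 1.78 CPM in Control libraries (SD, n = 4 each, edgeR adjusted p = 0.159). Earlier results of these data had shown the rise of such genes, so the list is no independent support. In all kept cells none of the 38 passed.

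Among the interferon genes with the smallest p, those named here had a lower CPM in every Control library than Lgals3bp did. Oasl2, a relative of the oligoadenylate synthetases, averaged 246 ± 52.0 CPM in CYR61 and 22.9 ± 8.58 CPM in Control libraries (SD, n = 4 each, log2 fold change 3.51). Ifit1, which binds foreign RNA, had a log2 fold change of 5.63, with 108 ± 28.2 CPM in CYR61 and 1.53 ± 1.77 CPM in Control libraries. Isg15, a ubiquitin-like modifier, had a log2 fold change of 4.05, with 278 ± 78.9 CPM in CYR61 and 18.2 ± 8.93 CPM in Control libraries. These 3 had the same edgeR adjusted p of 8.47e-05.

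**Figure D3:**
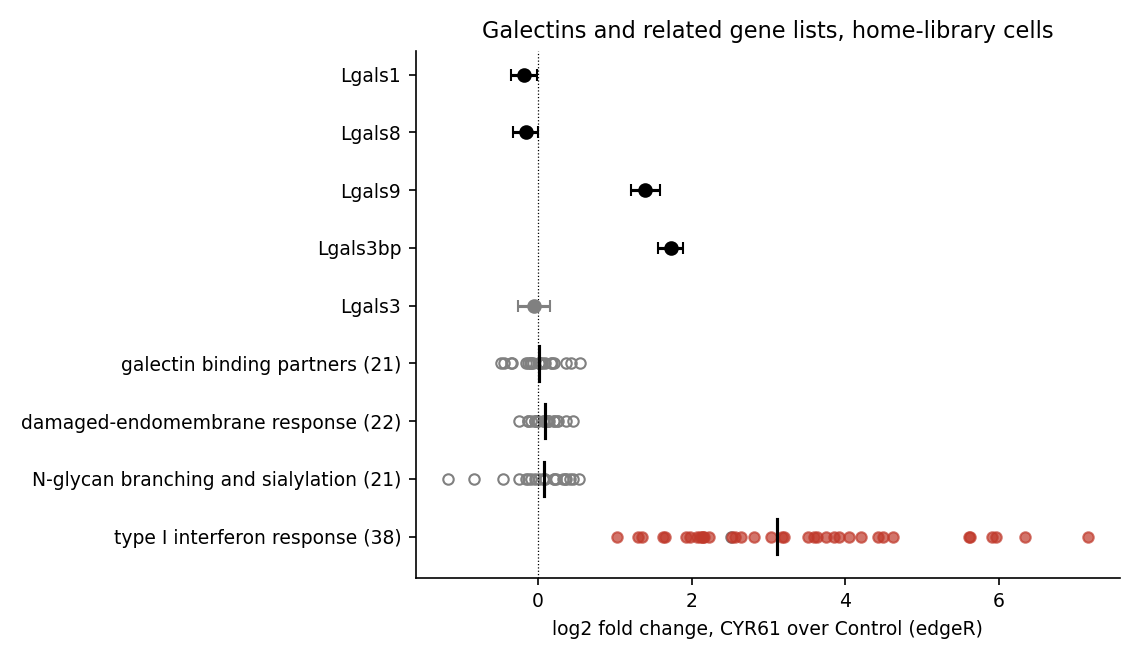
Log2 fold change of CYR61 over Control (x axis, edgeR, home-library cells) for the 4 genes and for Lgals3, with bars of 1 SE, and for each gene of 4 lists, with the number tested in brackets. Filled red points passed an adjusted p of 0.05, open points did not, and short black lines are list medians; the interferon list lay to the right, at a median of 3.11, and the 3 other lists around 0.

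Across the 8 libraries Lgals9 and Lgals3bp went together. The level of each followed the summed level of the 38 interferon genes, which was 6092, 5364, 10112 and 10223 CPM in CYR61 replicates 1 to 4 and 1213, 1387, 1282 and 1039 CPM in Control replicates 1 to 4. CYR61 libraries of the later date had more of the interferon list, more Lgals9 and more Lgals3bp than those of the earlier date. Within the Control libraries there was no such order, as replicate 2 had the most interferon RNA and replicate 3 the most Lgals9 and Lgals3bp.

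**Figure D4:**
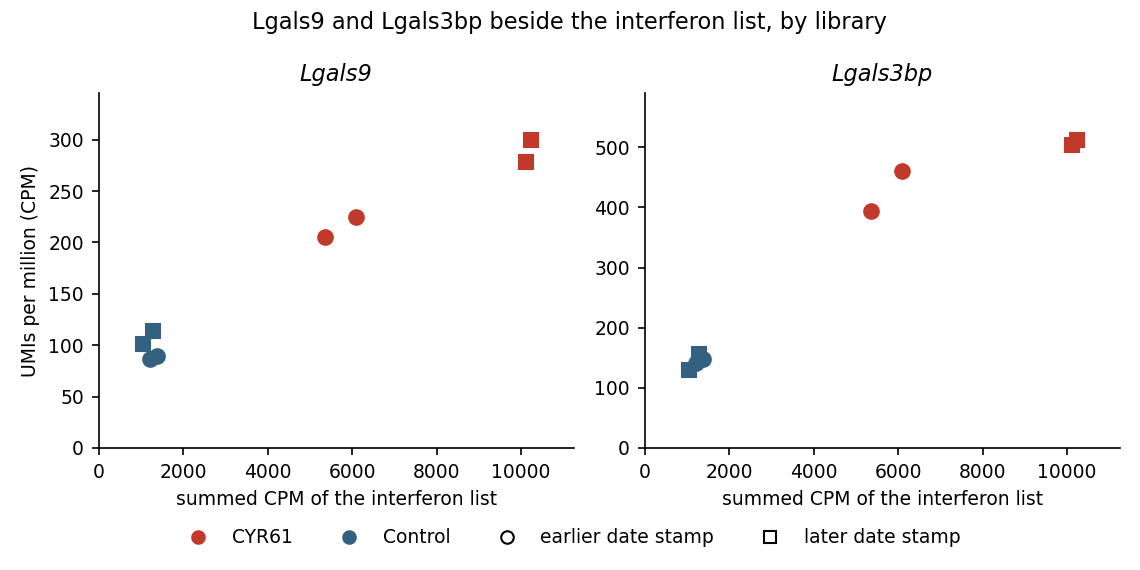
Level of Lgals9 and of Lgals3bp (CPM, y axis from 0) against the summed level of the 38 interferon genes (CPM, x axis from 0), 1 point for each library of home-library cells. Control libraries sat together at 1039 to 1387 CPM of interferon RNA, CYR61 libraries of the earlier date at 5364 and 6092 CPM, and those of the later date at 10112 and 10223 CPM.

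The genes most like each of the 4 were taken from 3781 genes with a mean of at least 50 CPM, by Pearson's r of log2 CPM over the 8 libraries. The libraries fall into groups and share dates, so r is a description of likeness. For Lgals9 they were Xaf1 (r = 0.990), Isg15 (0.990), Ifi204 (0.985), Trim30d (0.983) and Ms4a4c (0.983). For Lgals3bp they were Sp100 (r = 0.998), Ifi209 (0.990), Parp14 (0.990), Ifi204 (0.987) and Ifih1 (0.987). Of these, Xaf1, Isg15, Ifi204, Parp14 and Ifih1 are also in the interferon list. All 9 different genes were higher with CYR61, which the choice by r over both groups goes far to fix, so it adds nothing to the levels given above. Lgals9 and Lgals3bp had r = 0.981 with each other. For Lgals1 the genes most alike were Polr2g (r = 0.961), Triap1 (0.945), Ftl1-ps2 (0.939), Glipr1 (0.928) and Cox17 (0.926), of which Ftl1-ps2 is a pseudogene that may share reads with its parent gene, and for Lgals8 Mical1 (0.947), Tsc1 (0.942), Elob (0.938), Snf8 (0.904) and Trim41 (0.902).

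Promoters are shown because Lgals9 and Lgals3bp are known as interferon-inducible, and promoters of such genes often carry the interferon-stimulated response element. The set of RefSeq promoters used here, on GRCm38.p6, the assembly of mm10, held 3 of the 4 genes and had no entry for Lgals1. The windows below run from 100 bases before to 30 bases after the RefSeq start, 5′ to 3′ on the minus strand, with every match on either strand to a core of that element in capitals, namely GAAA, any 2 bases and GAAA again. They cover chr11:78984895-78985024 for Lgals9, chr11:118401930-118402059 for Lgals3bp, chr13:12461709-12461838 for Lgals8 and chr4:156200789-156200918 for Isg15, the last shown for comparison as one of the genes most like Lgals9. The RefSeq starts of Lgals9, Lgals3bp and Lgals8 used here all lie inside the spans that GENCODE gives these genes, that of Lgals8 farthest inside, and other starts were not searched.
Lgals9: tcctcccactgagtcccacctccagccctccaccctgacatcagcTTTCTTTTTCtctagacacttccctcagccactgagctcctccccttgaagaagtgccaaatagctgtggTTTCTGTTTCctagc
Lgals3bp: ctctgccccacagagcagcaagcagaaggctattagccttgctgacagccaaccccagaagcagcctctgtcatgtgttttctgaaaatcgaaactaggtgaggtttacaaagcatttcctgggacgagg
Lgals8: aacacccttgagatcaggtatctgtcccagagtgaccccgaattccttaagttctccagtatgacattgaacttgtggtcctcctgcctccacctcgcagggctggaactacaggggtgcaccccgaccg
Isg15: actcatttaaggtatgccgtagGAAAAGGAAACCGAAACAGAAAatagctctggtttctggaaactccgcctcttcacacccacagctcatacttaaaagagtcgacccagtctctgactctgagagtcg

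Lgals9 held 2 matches, both on the strand opposite to the gene. They lie at bases -55 to -46 and 16 to 25 from the start, so that the second is downstream of the RefSeq start. Isg15 held 3 overlapping matches on its own strand, between bases -78 and -57. Lgals3bp and Lgals8 held no exact match in the whole 300 bases searched, from 250 before to 50 after the start. Near matches were not counted. The Lgals3bp window holds gaaaatcgaaa, for example, with a longer gap between both GAAA strings than the core has. Without its leading g, that string fits the core, gap included, at every base but the first. The core was present in 1131 of 32851 promoters of that length (3.44%) and in 14 of 32 promoters of the interferon list (43.8%), which covered 27 of its 38 genes. TTCNNNGAA, the core of the gamma-activated sequence, which was searched on both strands, was absent from all 4 promoters and present in 8.30% of all promoters and in 6 of 32 promoters of the interferon list (18.75%). A match is a string of letters and not a shown binding site.

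Partners and pathway genes of galectins did not pass in either direction. Over all 10422 genes tested, 1.12% were called higher and 0.0384% lower by edgeR, and 646 had a p under 0.05 before adjustment. At such shares short lists would hold few calls or none, so nothing is read from their lack. Of 25 listed binding partners 21 were tested, and 0 rose and 0 fell (edgeR adjusted p under 0.05; 2 at an unadjusted p under 0.05; 0 in DESeq2), with a median log2 fold change of 0.01. The smallest p were those of Mertk, a receptor for engulfing dead cells, with 202 ± 30.6 CPM in CYR61 and 154 ± 17.5 CPM in Control libraries, and of Alcam, an adhesion molecule that galectin-8 binds, with 521 ± 26.8 CPM in CYR61 and 740.3 ± 188 CPM in Control libraries (SD, n = 4 each, edgeR adjusted p = 0.683 for both). The response to damaged membranes, in which galectin-8 acts, had 22 of 24 genes tested, with 0 called in either direction, 0 at an unadjusted p under 0.05 and a median of 0.10. Becn1, an autophagy factor, had 87.5 ± 3.78 CPM in CYR61 and 75.2 ± 7.42 CPM in Control libraries, and Rragc, a lysosomal GTPase of amino acid sensing, 266 ± 55.7 and 226 ± 38.8 CPM (edgeR adjusted p = 0.959 and 0.978).

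The enzymes that build galectin ligands, by branching and extending glycans or capping them with sialic acid, had 21 of 22 genes tested. None was called in either direction by edgeR or DESeq2, 1 was at an unadjusted p under 0.05, and the median log2 fold change was 0.08. Given the shares over all genes above, nothing is read from these counts either. St6gal1 encodes the enzyme that adds alpha-2,6-linked sialic acid, a cap that blocks binding of several galectins. It had 21.5, 18.2, 2.61 and 17.1 CPM in CYR61 replicates 1 to 4, against 33.8, 51.8, 39.2 and 20.9 CPM in Control replicates 1 to 4. The groups overlapped through 1 pair of libraries, and the log2 fold change of -1.17 (SE 0.44) did not pass (edgeR adjusted p = 0.595). B3gnt2, which extends chains of N-acetyllactosamine, had 185 ± 36.0 CPM in CYR61 and 142 ± 34.1 CPM in Control libraries (edgeR adjusted p = 0.847).

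Among cells of a library, Lgals8 was more abundant relative to all RNA in cells with many UMIs, and Lgals1 less. Cells with at least 1500 UMIs had 183 ± 7.85 CPM of Lgals8 in CYR61 libraries, against 143 ± 11.8 CPM in cells with fewer, and 212 ± 23.9 CPM against 143 ± 27.1 CPM in Control libraries (SD, n = 4 each). The difference was upward in 8 of 8 libraries, with a mean of 0.45 on the log2 scale. Lgals1 was higher in the deeper cells in 1 of 8 libraries, with 963 ± 178 CPM against 1267 ± 111 CPM in CYR61 libraries.

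Lgals9 differed between deeper and shallower cells of Control libraries. Each Control library held 96 to 297 Lgals9 UMIs over both depths, so the values of the shallower cells rest on few UMIs. Its level there was 107 ± 17.2 CPM in the deeper and 56.3 ± 16.8 CPM in the shallower cells (SD, n = 4), higher in the deeper cells in 4 of 4 libraries. In CYR61 libraries it was 257 ± 50.9 CPM in the deeper and 237 ± 17.1 CPM in the shallower cells, higher in the deeper cells in 2 of 4. Lgals3bp had 464 ± 53.2 CPM in the deeper and 485 ± 53.4 CPM in the shallower cells of CYR61 libraries, and 148 ± 13.5 and 124 ± 18.3 CPM in those of Control libraries. At both depths the CYR61 and Control libraries stayed apart for both genes. With each of 3203 CYR61 and 681 Control cells thinned to 1500 UMIs, Lgals9 had 204 to 297 CPM in CYR61 and 86.7 to 105 CPM in Control libraries, and Lgals3bp had 386 to 500.6 CPM and 108 to 154 CPM.

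**Figure D5:**
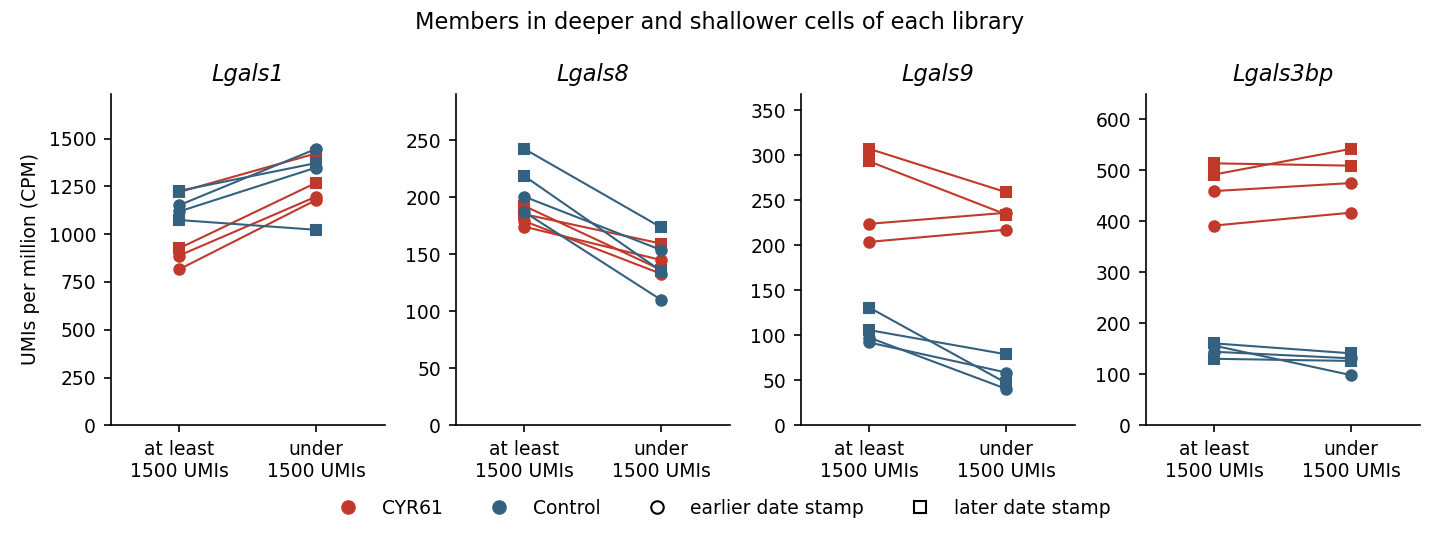
Levels of the 4 genes (CPM, y axis) in cells with at least 1500 UMIs and in cells with fewer, with a line joining both values of each library, CYR61 in red and Control in blue, circles for the earlier and squares for the later date stamp. Lgals8 lay higher in the deeper cells of all 8 libraries, whereas Lgals9 did so in 4 of 4 Control and 2 of 4 CYR61 libraries.

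The genes of complement C1q are expressed by many tissue macrophages, and cells with UMIs of at least 2 of C1qa, C1qb and C1qc were set against all other cells of their library. There were 3055 such cells in CYR61 and 382 in Control libraries. Lgals9 was higher in C1q cells in 8 of 8 libraries, by a mean of 0.35 ± 0.24 on the log2 scale (SD, n = 8 libraries), and Lgals8 in 8 of 8, by 0.33 ± 0.16. Lgals1 was lower in 8 of 8, with a mean log2 difference of -0.14 ± 0.0613. Each had an adjusted p of 0.0208 in the exact two-sided sign-flip permutation test over libraries, whose smallest possible unadjusted p is 0.00781, with adjustment over 8 pairs of gene and class. Lgals3bp was higher in 6 of 8 libraries by 0.15 ± 0.37 and did not pass (exact permutation test, adjusted p = 0.312).

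In all kept cells these 3 calls ended (exact permutation test, adjusted p = 0.0938 for Lgals9, 0.0625 for Lgals8 and 0.0938 for Lgals1). MHC class II cells reached 6 libraries there and were tested too, so the adjustment covered more pairs. Lgals8 kept an unadjusted p of 0.00781 in that test, the smallest that 8 libraries allow. The mean log2 differences there were 0.25 for Lgals9, higher in 6 of 8 libraries, 0.30 for Lgals8, higher in 8 of 8, and -0.083 for Lgals1, lower in 7 of 8.

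C1q cells were also much deeper, with a median of 2611 to 7142 UMIs per library, against 694 to 1056 UMIs in the other cells. With cells thinned to 1500 UMIs, a step added after the data were seen, 6 libraries had enough C1q cells and none of the 4 differences passed. The mean log2 differences were then 0.14 for Lgals9, 0.15 for Lgals8, 0.11 for Lgals3bp and 0.06 for Lgals1, the last with its direction turned round (exact permutation test, adjusted p from 0.25 to 0.375). The smallest unadjusted p that 6 libraries allow in this test is 0.03125, and a gene at that p alone could not pass over these 4 pairs. The lack of calls therefore says little, and the part of depth in the unthinned differences was not tested otherwise.

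In cells with at least 2 of 12 cycling markers, Lgals8 was higher in 7 of 7 libraries, by 0.18 ± 0.15 on the log2 scale (SD, exact permutation test, adjusted p = 0.0312, smallest unadjusted p 0.0156). With any 1 of the 7 libraries left out, the mean difference was 0.15 to 0.21, higher in 6 of 6, and the call was lost (exact permutation test, adjusted p from 0.05 to 0.0625). The smallest unadjusted p that 6 libraries allow is 0.03125, so that loss says little. Lgals1, Lgals9 and Lgals3bp did not pass, with mean log2 differences of -0.12, 0.33 and 0.08 (exact permutation test, adjusted p = 0.075, 0.0833 and 0.531). Cycling cells had a median of 1898 to 14951 UMIs, against 773 to 1293 UMIs in the other cells. Thinned to 1500 UMIs, only 3 libraries had enough cycling cells, and no test was made.

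Marker lists that differed between the groups are given beside Lgals9 and Lgals3bp. The 3 C1q genes summed to 931 to 1651 CPM in CYR61 and 524 to 915 CPM in Control libraries, and 5 MHC class II genes to 222 to 436 CPM and 42.7 to 221 CPM. Both sums were higher in every CYR61 library, by a narrow margin. Of the single genes, C1qb, C1qc, Cd74, H2-Eb1 and Ciita overlapped between the groups, and C1qa, H2-Aa and H2-Ab1 did not. Over all genes tested 2.87% were apart with CYR61 higher. B cell markers, of which 5 of 6 were in the files, summed to 3.48 to 6.95 CPM in CYR61 and 8.97 to 37.98 CPM in Control libraries. Among them the groups were apart only for Ighm, at 1.74 to 4.80 CPM in CYR61 and 8.97 to 35.6 CPM in Control libraries. These levels rest on few UMIs in the libraries of low depth. The share of all genes apart with CYR61 lower is not given here, so nothing is read from Ighm. Cd79a, Cd79b, Ms4a1 and Ebf1 overlapped, and the part of B cell markers was not tested. In cells outside the C1q class Lgals9 had 199.5 to 257 CPM in CYR61 and 63.1 to 102 CPM in Control libraries, and Lgals3bp 394 to 534 CPM and 105 to 147 CPM. In cells outside the MHC class II class Lgals9 had 206 to 299 CPM in CYR61 and 81.4 to 111 CPM in Control libraries, and Lgals3bp 394 to 509 CPM and 128 to 155 CPM. The groups thus did not overlap for either gene outside either class. Neutrophil-lineage markers summed to 408 to 1684 CPM in CYR61 and 301 to 1269 CPM in Control libraries, and megakaryocyte or platelet markers to 586 to 1359 CPM and 372 to 875 CPM, with overlap in both. The largest part of the neutrophil-lineage sum was Mmp8, at 342 to 862 CPM in CYR61 and 221 to 836 CPM in Control libraries. The other sum was nearly all Pf4, at 584 to 1349 CPM and 368 to 843 CPM. Ppbp, Itga2b, Gp9 and Gp1bb each stayed at or under 24.9 CPM, so that sum is not read as platelet RNA. T or NK cell markers stayed at or under 1.65 CPM and erythroid markers, 1 of 6 of which was in the files, at or under 0.144 CPM in every library.

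Within libraries, cells were ranked by the share of their UMIs from the interferon list, and the 3 equal parts with high, middle and low shares were formed, of which the high and the low part were compared as a description. In CYR61 libraries Lgals9 had 250.3, 233, 273 and 343 CPM in the high part of replicates 1 to 4, against 183, 187, 205 and 251 CPM in the low part. It was higher in all 4, by a mean of 0.41 ± 0.0631 on the log2 scale (SD, n = 4). Lgals8, whose levels overlapped between the groups, was higher in 3 of 4, by 0.37 ± 0.31, and in Control libraries in 4 of 4, by 0.39 ± 0.21. Lgals3bp was higher in 3 of 4, by 0.23 ± 0.26, and Lgals1 in 0 of 4, with a mean of -0.15 ± 0.0860. The low parts of CYR61 libraries still had more Lgals9 than any whole Control library, and 332 to 508 CPM of Lgals3bp.

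The cells of the high part had more UMIs, with a median of 834 to 1895 UMIs, against 718 to 1205 UMIs in the low part of CYR61 libraries. With cells thinned to 500 UMIs, the mean log2 difference in CYR61 libraries was 0.14 ± 0.28 for Lgals9, higher in 3 of 4, -0.15 ± 0.24 for Lgals3bp, higher in 1 of 4, and -0.038 ± 0.13 for Lgals8, higher in 2 of 4. In Control libraries the low part held cells with no UMI of the list, and Lgals9 had 2 to 15 UMIs in it. Thinned high and low parts of Control libraries held 0 to 10 Lgals9 UMIs each, too few to read a difference.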

How the data were processed

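UMI counts per gene and cell barcode were deposited by the authors for 8 HIVE libraries. Reads were assigned to mm10, per the submitters' processing notes. Not given in the sources used here: aligner, counter, annotation, cell calling and strand use. Gene positions were taken from GENCODE and promoters from RefSeq (GRCm38.p6).

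Barcodes with at least 300 genes and at most 20% mitochondrial UMIs were kept, and each was held in the library of its date stamp where it had most UMIs. No doublet caller was run. Counts were summed per library and tested with edgeR 4.0.16 in R 4.3.3 (quasi-likelihood test, TMM, filterByExpr, protein as the sole term, Benjamini-Hochberg adjustment over all genes tested, threshold 0.05). DESeq2 1.42.0 was an alternative. CPM divided a gene's UMIs by the library's UMIs in the same cells. Marker-defined classes needed 20 cells in a library and 6 libraries, with a prior count of 0.5 UMIs. They were compared by exact sign-flip permutation, written with numpy 2.4.6 in Python 3.11.15. The edgeR step was tested on simulated data.

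The 4 genes, the gene lists and the markers were chosen with earlier results of these data known. Genes named from a list were up to 4 called genes with the smallest p in each direction, or, with none called, the 2 with the smallest p. One gene that this rule names is not reported here. The genes most alike were the 5 with the highest r, leaving out Gm models, Rik names and mitochondrial and ribosomal protein genes. Libraries of the same number did not all deviate together, with correlations of -0.20, 0.32, -0.09 and 0.31 for replicates 1 to 4. The floor of 3 counts covers counting error only. Settings that were varied are given in the closing part.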

Additional observations from a re-analysis of the deposited data

How the results depend on the processing

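The log2 fold change of Lgals1 moved by less than the spread between libraries under all 21 alternatives and that of Lgals9, Lgals3bp and Lgals8 under 19, 19 and 18. In all kept cells Lgals9 had 0.95, Lgals3bp 1.001 and the interferon list 0 genes higher. In barcodes listed once per date the values were 1.76, 1.99 and, for Lgals8, -0.34. Lgals8 had -0.36 thinned to 1500 UMIs and 0.022 at the earlier date. With 1 library left out Lgals1 ranged from -0.25 to -0.07, Lgals8 from -0.22 to -0.0040, Lgals9 from 1.30 to 1.51 and Lgals3bp from 1.68 to 1.82, and the interferon list had 31 to 36 genes higher. The number of gene and class pairs that passed, 4, was 0 when thinned to 1500 UMIs, 0 in all kept cells and 0 with 1 marker more, and 3 to 4 with 1 library left out. When thinned, C1q cells reached 6 libraries and cycling cells 3, which left little room for a call. With 1 marker more, C1q cells reached 5 libraries and were not tested, and Lgals9, Lgals8 and Lgals1 there differed by 0.20, 0.15 and -0.12. In all kept cells Lgals8 in C1q cells kept a difference of 0.30 in 8 of 8 libraries, at the smallest p the test allows. Lgals1 in C1q cells turned to 0.065 when thinned. By interferon share, Lgals9 had 0.58 in all kept cells, 0.26 with 2 equal parts and 0.14 thinned to 500 UMIs, Lgals3bp 0.49 in all kept cells and -0.15 thinned, and Lgals8 -0.038 thinned. The cause was not tested.

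Genes called higher and lower, 117 and 4, were 106 and 6 with the replicate block, where Lgals9 had 1.39 and Lgals3bp 1.73. Same-numbered libraries had correlations of -0.20, 0.32, -0.09 and 0.31, so the numbers were not read as a pairing. The counts were 158 and 25 in DESeq2, 199 and 32 with a term for Xist or Y-linked RNA, 119 and 13 with date, 208 and 31 with no gene filter, 74 and 0 without CYR61 replicate 4, 116 and 11 without CYR61 replicate 3, 57 and 29 at the earlier and 80 and 3 at the later date. They were 75 and 3 thinned to 1500 UMIs and 105 and 3 without neutrophil-lineage cells, both chosen after seeing the data. At 599 Lgals9 UMIs in all Control cells, depth limits any split of the Control libraries.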
